A study of Homo sapiens with 8 samples.

Results

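Expression of the interleukin 2 and interleukin 21 receptor chains, of their JAK and STAT route and of the kinase gene ALK was followed in Karpas299, a human cell line grown from an anaplastic lymphoma that carries the NPM1-ALK fusion. The members were 10 genes chosen by symbol, namely ALK, STAT3, STAT5A, JAK3, SOCS1, SOCS3, IL2RA, IL2RB, IL2RG and IL21R. They had 17 of the 48797 probes on the array. Of these, 12 probes of 8 genes passed the filter of a detection p under 0.01 on at least 2 arrays, and each of the 12 was detected on all 8 arrays. Those 8 genes were among 10183 features tested. RNA was hybridised to Illumina HumanHT-12 v3 arrays, with 2 biological duplicates in each of 4 groups. All cultures were kept for 16 h before treatment and were harvested 8 h after it. One group was untreated. Another received CD153, the natural ligand of CD30, as a fusion to an Fc part (CD153-Fc), a further one the activating antibody T104 against CD30, and the last group both (CD153-Fc + T104), each protein at 10 µg/ml. No group with an Fc part or an unrelated antibody alone was analysed here, so binding of CD30 and added protein cannot be told apart.

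Receptors for interleukins 2 and 21 are built from chains that carry no kinase of their own. The common gamma chain, encoded by IL2RG, binds JAK3, which phosphorylates STAT proteins. These enter the nucleus and raise transcription of target genes, among them the SOCS genes, whose products damp the JAKs. In this lymphoma the NPM1-ALK kinase is known to activate STAT3 without any cytokine, and CD25, the protein of IL2RA, is a common surface marker.

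The arrays had between 10713 and 12967 detected probes. The untreated duplicates differed most. The SD of their difference was 0.45 log2 over all features, against 0.23 to 0.26 in the treated groups. This touches every comparison with untreated cells. The model shares 1 spread over all 8 arrays, so the comparisons between treated groups are touched as well. In a fit of the compared groups alone, T104 minus CD153-Fc had 4.11% of features called, against 0.609% in the main fit. For CD153-Fc + T104 minus CD153-Fc the shares were 2.28% and 0.187%. Untreated replicate 1 stood apart from every other array (r of 0.959 to 0.977 over all features), while untreated replicate 2 was nearer to the CD153-Fc arrays (r = 0.987 and 0.986) than to its own duplicate (r = 0.977). With replicate 1 as the sole untreated array, the share of all features called was 26.1% with CD153-Fc, 33.6% with T104 and 33% with CD153-Fc + T104, against 1.37%, 10.5% and 6.67% with both. With replicate 2 as the sole one, it was 2.75%, 13.7% and 8.09%. Of 8 lymphoma markers, ALK and IL2RA among them, 7 were detected on all 8 arrays, and the CD30 gene TNFRSF8 on 2. All 4 B cell markers with a probe and all 4 natural killer cell markers were detected on 0 arrays. Of 5 monocyte markers, CSF1R and CD68 were detected on all arrays, ITGAM on 1, and CD14 and LYZ on 0. Levels below are log2 intensities after background correction and quantile normalization. In bulk RNA, fewer cells of a kind and less RNA per cell cannot be told apart.

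IL2RA and IL21R, the receptor genes that rose in all 3 treated groups, are shown by the 250 bases before their start sites (RefSeq, GRCh38.p14), 5′ to 3′ on the gene's strand, with a match to an NF-kB motif in capitals. The IL2RA stretch is chr10:6062368-6062617 on the minus strand and the IL21R stretch is chr16:27427021-27427270 on the plus strand.
IL2RA: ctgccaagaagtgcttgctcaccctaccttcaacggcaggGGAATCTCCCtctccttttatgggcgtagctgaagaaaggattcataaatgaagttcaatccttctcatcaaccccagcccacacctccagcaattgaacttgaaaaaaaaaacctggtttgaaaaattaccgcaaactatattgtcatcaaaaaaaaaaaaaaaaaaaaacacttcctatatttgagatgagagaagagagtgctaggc
IL21R: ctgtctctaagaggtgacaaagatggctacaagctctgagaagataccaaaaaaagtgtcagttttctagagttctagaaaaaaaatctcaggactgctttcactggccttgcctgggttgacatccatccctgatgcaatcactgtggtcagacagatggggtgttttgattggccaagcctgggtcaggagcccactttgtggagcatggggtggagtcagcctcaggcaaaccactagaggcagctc
Windows of 300 bases, 250 before and 50 after the start, were searched on both strands for the STAT motif TTCNNNGAA, the AP-1 motif TGANTCA and an NF-kB motif of GGG and TTCC with any 3 bases between them. The members had 13 such windows for 9 genes, and IL2RB had no entry. The NF-kB motif stood in 4 of the 13 windows and in 6.52% of all 35116 windows. The IL2RA match, GGAATCTCCC as read on the gene's strand, began 210 bases before the start. The other matches were GGGTCATTCC for SOCS3, GGGACTTTCC for JAK3 and GGGTGCTTCC for ALK. The ALK match lay in the window chr2:29223774-29224073, and the ALK window chr2:29921537-29921836 held none. That of SOCS3 lay in chr17:78359618-78359917, and its window chr17:78360876-78361175 held none. The STAT motif stood in 0 of 13 windows, against 7.66% of all windows, and the AP-1 motif in 0, against 7.71%. Binding was not measured.

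Signal of the ALK probe was strong on every array, and none of the 7 comparisons called it. ALK, whose kinase part is joined to NPM1 in the fusion, lay at 13.10 and 13.46 log2 in untreated cells, at 13.44 and 13.34 with CD153-Fc, at 13.45 and 13.56 with T104, and at 13.30 and 13.56 with CD153-Fc + T104. Each treated group overlapped the untreated one. Its difference from untreated cells was 0.11 ± 0.15 log2 (SE) with CD153-Fc, 0.22 ± 0.15 with T104 and 0.15 ± 0.15 with CD153-Fc + T104. The 95% interval with T104 ran from -0.10 to 0.55 log2 (adjusted p = 0.375, limma, adjusted over all features). Without untreated replicate 2, ALK was called with T104 at 0.41 log2 (adjusted p = 0.0290), as were 33.6% of all features there, and without untreated replicate 1 the difference was 0.043. The sources used here do not place the ALK probe within the transcript, so whether it reads the fusion was not tested. The named NPM1 probe was detected on 0 arrays.

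Among the receptor chains, IL2RA rose in all 3 treated groups. This gene of the alpha chain, which gives the interleukin 2 receptor its high affinity, was at 12.36 and 12.81 log2 in untreated cells, at 13.30 and 13.51 with CD153-Fc, at 13.48 and 13.72 with T104, and at 13.50 and 13.56 with CD153-Fc + T104. All 6 treated arrays lay above both untreated arrays, and the treated groups overlapped each other. The rise was 0.82 ± 0.16 log2 or 1.77-fold with CD153-Fc (adjusted p = 0.0274), 1.02 ± 0.16 log2 or 2.02-fold with T104 (adjusted p = 0.00165) and 0.95 ± 0.16 log2 or 1.93-fold with CD153-Fc + T104 (adjusted p = 0.00350). T104 minus CD153-Fc was 0.19 log2, with a 95% interval from -0.16 to 0.54. The CD153-Fc call was lost without each of the 6 treated arrays (adjusted p of 0.0703 to 0.316). The call for CD153-Fc + T104 was lost without either of its own arrays (adjusted p = 0.0506 and 0.0626), whereas the T104 call held without each array. A second, dimmer IL2RA probe rose by 0.88 ± 0.22 log2 with T104 (adjusted p = 0.0253 over all probes). It gave 0.28 ± 0.22 with CD153-Fc and 0.30 ± 0.22 with CD153-Fc + T104, neither of them called.

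IL2RB, the signalling beta chain shared by the receptors of interleukins 2 and 15, was called with the ligand alone. Its levels lay at 13.38 and 13.41 log2 in untreated cells, at 13.92 and 14.05 with CD153-Fc, at 13.75 and 13.73 with T104, and at 13.77 and 13.78 with CD153-Fc + T104. No 2 of the 4 groups overlapped, and their order from low to high was untreated, T104, CD153-Fc + T104, CD153-Fc. The rise with CD153-Fc was 0.59 ± 0.12 log2 or 1.50-fold (adjusted p = 0.0281). The differences with T104 (0.35 ± 0.12, adjusted p = 0.0812) and with CD153-Fc + T104 (0.38 ± 0.12, adjusted p = 0.0727) were not called. T104 minus CD153-Fc was -0.24 log2 with a 95% interval from -0.50 to 0.011 (adjusted p = 0.618), so a difference between antibody and ligand was not shown. The CD153-Fc call was lost without each of the 6 treated arrays (adjusted p of 0.0711 to 0.314) and with the replicate number as a block (adjusted p = 0.0557). Without untreated replicate 2, T104 (0.37 log2, adjusted p = 0.0349) and CD153-Fc + T104 (0.40 log2, adjusted p = 0.0219) were called as well, where 33.6% and 33% of all features were.

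IL21R, the chain that binds interleukin 21, had the largest main-fit difference of the 8 tested members in each comparison with untreated cells. Its detected probe stood at 8.25 and 9.10 log2 in untreated cells, at 10.15 and 10.12 with CD153-Fc, at 10.47 and 10.21 with T104, and at 10.62 and 10.46 with CD153-Fc + T104. The untreated duplicates were far apart, yet both lay below every treated array. IL21R rose by 1.46 ± 0.23 log2 or 2.75-fold with CD153-Fc (adjusted p = 0.00653), by 1.67 ± 0.23 log2 or 3.17-fold with T104 (adjusted p = 0.000604) and by 1.86 ± 0.23 log2 or 3.63-fold with CD153-Fc + T104 (adjusted p = 0.000325). Without untreated replicate 1 the rises were 1.04, 1.25 and 1.44 log2, and without untreated replicate 2 they were 1.89, 2.10 and 2.29. The T104 rise of IL21R was then not the largest without untreated replicate 1, where STAT5A rose by 1.49 log2. T104 minus CD153-Fc was 0.21 log2 with a 95% interval from -0.29 to 0.71, and T104 overlapped CD153-Fc + T104. The CD153-Fc call was lost without either CD153-Fc array (adjusted p = 0.123 and 0.125). The other 3 probes of IL21R were detected on 0 arrays, so the gene rests on 1 probe.

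The common gamma chain gene IL2RG and the gene of its partner kinase, JAK3, could not be followed. Each had 1 probe, detected on 0 of 8 arrays, with intensities from 121 to 156 for IL2RG and from 114 to 195 for JAK3. The JAK3 probe came closest to the limit in untreated cells, where the detection p was 0.0132 on both arrays. Its levels there, 6.37 and 6.59 log2, lay above the 5.28 to 5.87 of the treated arrays, all of them not well above background. With no filter on dim probes, JAK3 was called at -0.95 ± 0.20 log2 with CD153-Fc + T104 (adjusted p = 0.0266), and with the looser filter of a detection p under 0.05 it was called at -0.95 ± 0.24 (adjusted p = 0.0372). Both values rest on signals under the detection limit of 0.01 used here.

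**Figure D1:**
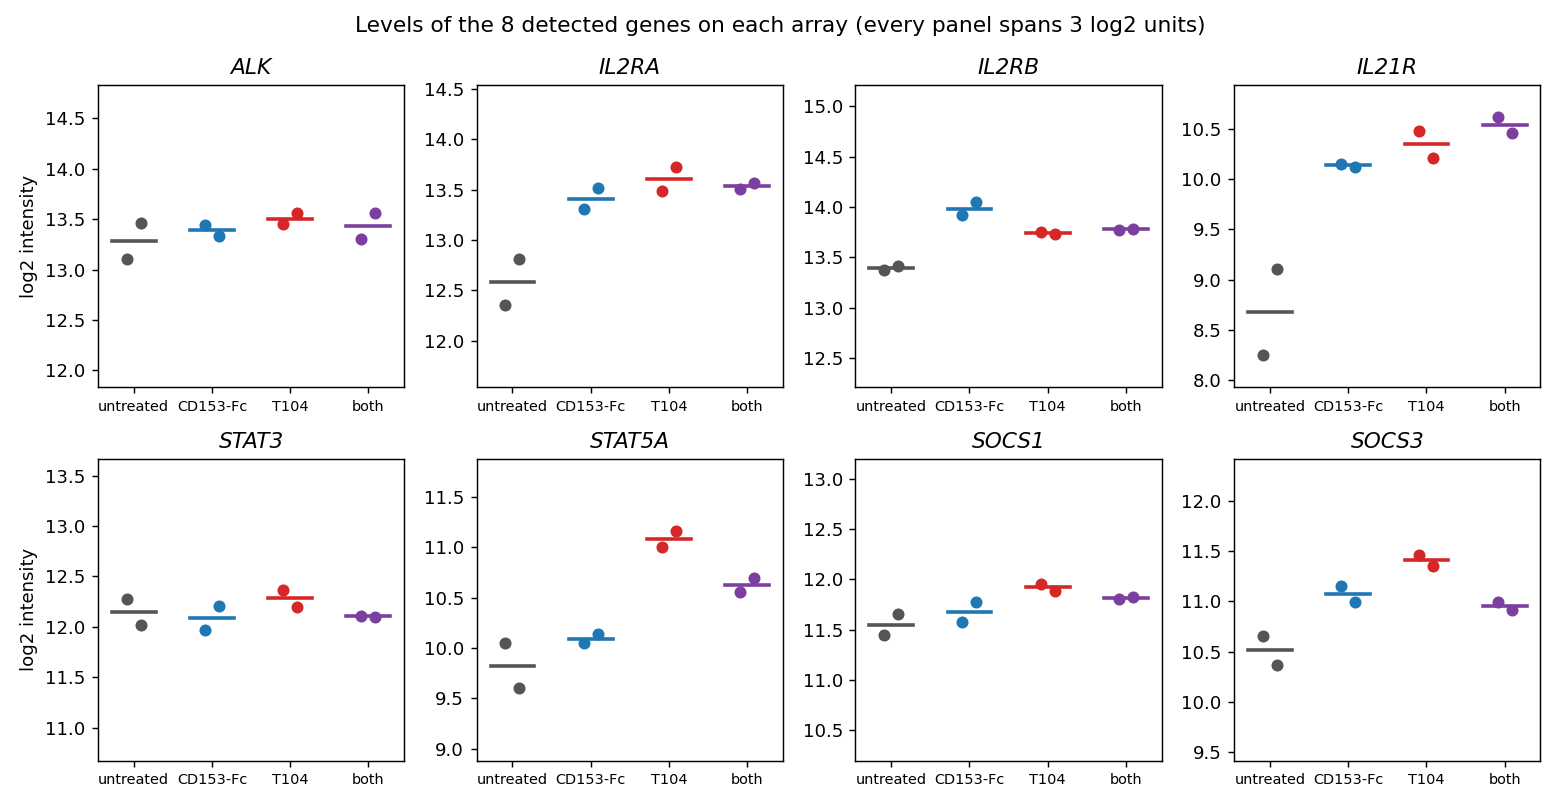
Level of each of the 8 detected genes as log2 intensity (vertical axis, 3 log2 units in every panel) on the 2 arrays of each group (points) with the group mean (line), "both" standing for CD153-Fc + T104. IL21R and IL2RA lie higher on every treated array than on the untreated ones, STAT5A is highest with T104 at 11.002 and 11.16, and ALK stays between 13.10 and 13.56.

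Of the transcription factor genes, STAT5A was called and STAT3 was not. STAT5A, whose protein is activated by interleukin 2 and related cytokines, was at 10.05 and 9.60 log2 in untreated cells, at 10.05 and 10.14 with CD153-Fc, at 11.002 and 11.16 with T104, and at 10.55 and 10.70 with CD153-Fc + T104. The untreated and CD153-Fc arrays overlapped, and both groups with the antibody stood above them, T104 alone the highest. STAT5A rose by 1.26 ± 0.17 log2 or 2.39-fold with T104 (adjusted p = 0.000598) and by 0.80 ± 0.17 log2 or 1.74-fold with CD153-Fc + T104 (adjusted p = 0.0161). With CD153-Fc the difference was 0.27 ± 0.17 (adjusted p = 0.494). Between antibody and ligand it was the 1 member called, at 0.99 ± 0.17 log2 or 1.98-fold higher with T104 (adjusted p = 0.0213), where 0.609% of all features were called, 0.54% higher and 0.0687% lower. The arrays of these groups did not overlap for 6 of 8 members and 46.9% of features. That call was lost without each of the 6 treated arrays (adjusted p of 0.0705 to 0.445), with median scaling (adjusted p = 0.0608) and with no filter on dim probes (adjusted p = 0.0508). The call for CD153-Fc + T104 was lost without either of its own arrays (adjusted p = 0.101 and 0.155) and, among other settings, with median scaling at 0.51 log2. The rise with T104 held without each array.

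STAT3, the main transcription factor downstream of NPM1-ALK, was not called by its brightest probe. That probe lay at 12.27 and 12.02 log2 in untreated cells, at 11.97 and 12.21 with CD153-Fc, at 12.37 and 12.20 with T104, and at 12.11 and 12.10 with CD153-Fc + T104, and every treated group overlapped the untreated one. The differences from untreated cells were -0.055 ± 0.15, 0.14 ± 0.15 and -0.041 ± 0.15 log2 with CD153-Fc, T104 and CD153-Fc + T104. The probes of this gene disagreed with T104. A dimmer one, at 10.17 and 9.92 log2 untreated, reached 10.72 and 10.59 with T104 and was called higher by 0.61 ± 0.16 (adjusted p = 0.0272 over all probes), while the remaining one gave 0.34 ± 0.17 (adjusted p = 0.230). With CD153-Fc + T104 these probes stood at 0.16 ± 0.16 and 0.12 ± 0.17, not called.

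**Figure D2:**
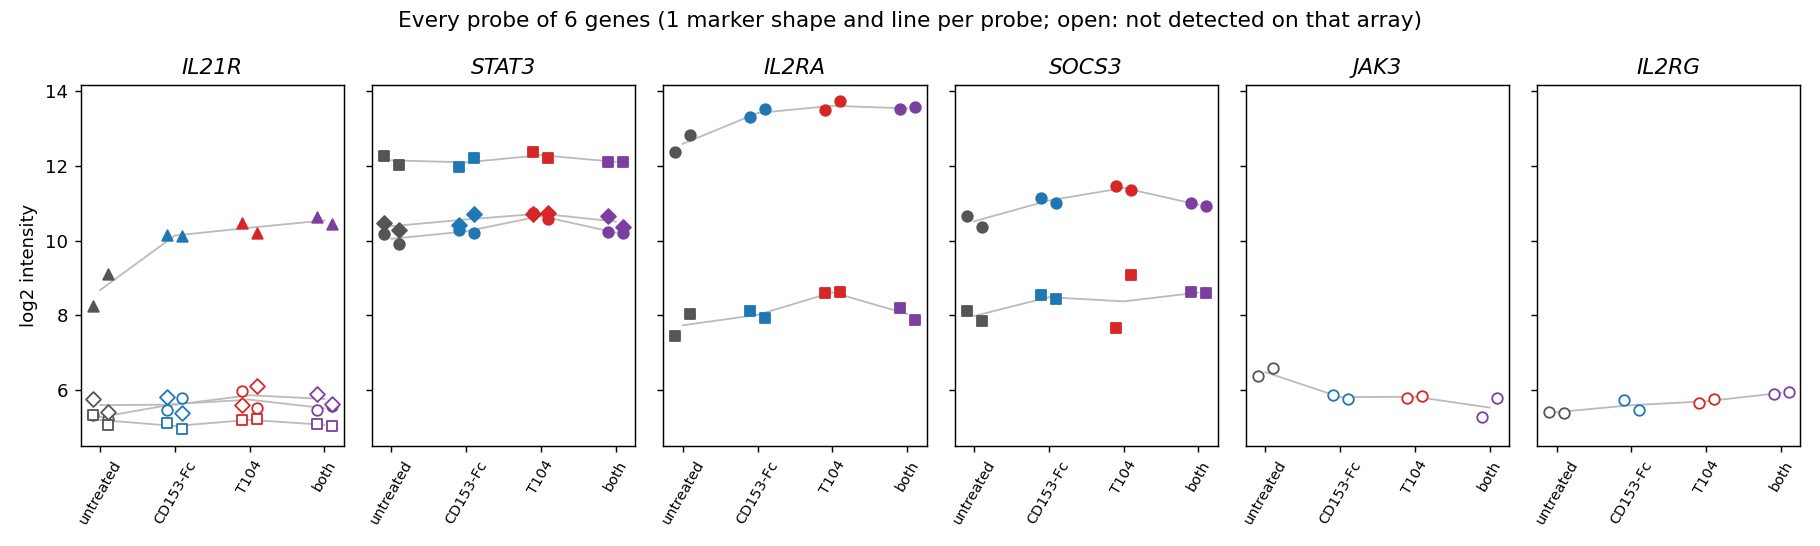
Log2 intensity (vertical axis) of every probe of 6 members by group (horizontal axis), with open markers where a probe was not detected. Heights of different probes are not comparable, and 3 of 4 IL21R probes and the probes of JAK3 and IL2RG stayed undetected on all arrays.

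Of the feedback inhibitors, SOCS3 rose with T104 and SOCS1 was not called. SOCS3, whose protein blocks JAKs bound to cytokine receptors, was at 10.66 and 10.37 log2 in untreated cells, at 11.15 and 10.99 with CD153-Fc, at 11.46 and 11.35 with T104, and at 10.997 and 10.92 with CD153-Fc + T104. Every treated array lay above both untreated ones, and both T104 arrays lay above all others. The rise with T104 was 0.89 ± 0.16 log2 or 1.86-fold (adjusted p = 0.00294). The differences with CD153-Fc (0.56 ± 0.16, adjusted p = 0.113) and with CD153-Fc + T104 (0.44 ± 0.16, adjusted p = 0.116) were not called. The T104 call was lost without T104 replicate 1 (0.84 log2, adjusted p = 0.0570). Without untreated replicate 1, CD153-Fc (0.70 log2, adjusted p = 0.00804) and CD153-Fc + T104 (0.59 log2, adjusted p = 0.0131) were called too, where 2.75% and 8.09% of all features were. Without untreated replicate 2 CD153-Fc was called (0.42 log2, adjusted p = 0.0417), as were 26.1% of all features. A second SOCS3 probe gave 0.39 ± 0.33 log2 with T104, not called, with T104 duplicates far apart at 7.66 and 9.09.

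SOCS1, an inhibitor induced by many cytokines, was at 11.44 and 11.65 log2 in untreated cells, at 11.58 and 11.78 with CD153-Fc, at 11.95 and 11.89 with T104, and at 11.81 and 11.83 with CD153-Fc + T104. Both groups with the antibody lay above the untreated arrays without overlap. The difference with T104 was 0.37 ± 0.15 log2 (adjusted p = 0.129), and it was called without untreated replicate 2 (0.48 log2, adjusted p = 0.0130), as were 33.6% of all features.

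**Figure D3:**
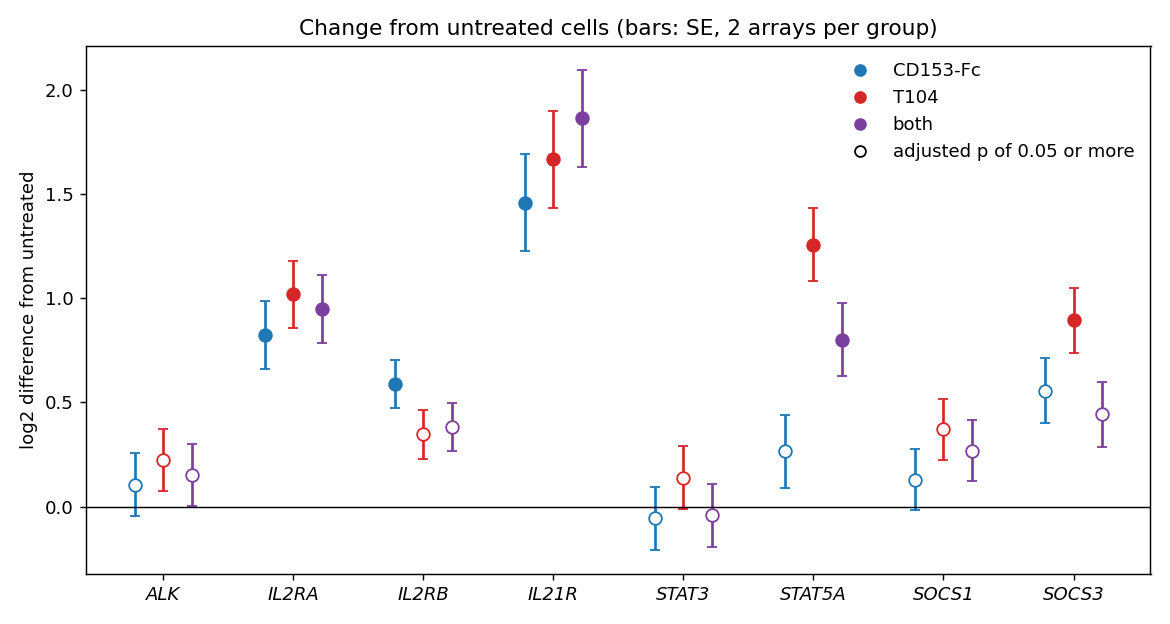
Difference from untreated cells in log2 intensity for the 8 detected genes, with bars of 1 SE and filled points where the adjusted p was under 0.05. All 3 points of IL21R and IL2RA are filled, IL2RB is filled with CD153-Fc, STAT5A with T104 and both agents, and SOCS3 with T104.

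Counted together, 3 of the 8 tested members rose with CD153-Fc (IL2RA, IL2RB and IL21R), where 1.37% of all features were called and 1.1% rose. With T104 4 rose (STAT5A, SOCS3, IL2RA and IL21R), where 10.5% were called and 5.11% rose. With CD153-Fc + T104 3 rose (STAT5A, IL2RA and IL21R), where 6.67% were called and 3.82% rose. In these comparisons 0 members were called lower by limma, and 4, 6 and 5 members had an unadjusted p under 0.05. The share of all features under that unadjusted threshold was not computed, so these last counts have no background to be read against. The median member stood at 0.41, 0.63 and 0.41 log2, against -0.0010, -0.020 and -0.018 over all features. The arrays of the compared groups did not overlap for 4, 6 and 6 of the 8 members, and for 41%, 51.4% and 47.2% of all features. These comparisons share the untreated arrays. The members were chosen with earlier results of these data known, so the counts and medians are not independent of that choice.

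CD153-Fc + T104 was then set against each agent alone. Against CD153-Fc, 0 members were called by limma and 1 had an unadjusted p under 0.05, STAT5A at 0.53 ± 0.17 log2 (adjusted p = 0.417), where 0.187% of features were called. STAT5A was called there without untreated replicate 1 or 2 (adjusted p = 0.0204 and 0.0199), where 2.72% and 2.68% of features were. The arrays did not overlap for 4 of 8 members and 45.4% of features. Against T104, 0 members and 0% of features were called by limma, while a fit of those groups alone called 0.537% of features. In the main fit 2 members had an unadjusted p under 0.05, for which the share of all features was not computed in either comparison. These members were STAT5A at -0.45 ± 0.17 log2 and SOCS3 at -0.45 ± 0.16. In both genes the arrays with CD153-Fc + T104 lay below those with T104. The arrays did not overlap for 5 of 8 members and 38.6% of features.

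The interaction is the response to CD153-Fc in the presence of T104 less that in its absence. It lay below 0 for all 8 tested members, with a median of -0.64 log2 against 0.0065 over all features. Low untreated values lower the interaction and enlarge the rises over untreated cells together, so these are not separate results. ALK stood at 0.0016 without untreated replicate 1, and STAT3 at 0.0016 without untreated replicate 2. The interaction was called for SOCS3 at -1.01 ± 0.22 log2 (adjusted p = 0.0451), where 1.34% of features were called, 0.52% higher and 0.815% lower. The SOCS3 call was lost without each of the 6 treated arrays (adjusted p of 0.158 to 0.264), with median scaling (adjusted p = 0.122), with no filter (adjusted p = 0.137), without a trend (adjusted p = 0.0806) and with the replicate block (adjusted p = 0.0551). The second SOCS3 probe gave -0.27 ± 0.47, not called. IL21R (-1.26 ± 0.33, adjusted p = 0.0920), IL2RA (-0.89 ± 0.23, adjusted p = 0.0864), STAT5A (-0.72 ± 0.25, adjusted p = 0.218) and IL2RB (-0.55 ± 0.17, adjusted p = 0.153) were not called. Without untreated replicates 1 and 2 in turn, IL21R was called at -0.85 and -1.70 log2 and IL2RA at -0.67 and -1.12. STAT5A was called without untreated replicate 1 (-0.95) and IL2RB without untreated replicate 2 (-0.57). In these settings 4.72% and 17.2% of all features were called for the interaction.

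The wider pathway was described by 5 lists holding 82 other genes, 78 of them with a probe and 59 tested. Of the 59, 4 rose with CD153-Fc, 16 rose and 4 fell with T104, and 13 rose and 1 fell with CD153-Fc + T104, where 1.1%, 5.11% and 3.82% of all features rose and 0.275%, 5.41% and 2.85% fell. These shares also apply to each list. The median differences of the 59 were 0.15, 0.25 and 0.27 log2. The lists, too, were chosen with earlier results of these data known. Without untreated replicate 2, 26, 33 and 33 of the 59 were called, and so were 26.1%, 33.6% and 33% of all features. Of 14 tested receptors that signal through JAKs, 3 rose with T104 and 0 were called with CD153-Fc. IL7R, the interleukin 7 receptor, rose by 1.07 ± 0.17 log2, IL6ST, the signal chain gp130, by 0.64 ± 0.16 and IL4R, the interleukin 4 receptor, by 0.55 ± 0.16. The IL4R call stood at adjusted p = 0.0496 and was lost in 15 of 19 other settings. That of IL6ST was lost without either T104 array, with median scaling, with no filter on dim probes and in a fit of the compared groups alone.

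Of 15 ligand genes, 7 were tested, and 3 rose and 2 fell with T104. EBI3, a subunit of interleukins 27 and 35, was not well above background in untreated cells. It was at least 2.10-fold higher with CD153-Fc, at least 6.24-fold higher with T104 and at least 5.78-fold higher with CD153-Fc + T104. IL22, the gene of a cytokine that acts on epithelia, was at 9.40 and 9.64 log2 in untreated cells and at 10.99 and 10.90 with T104. It rose by 1.42 ± 0.16 with T104 and by 0.77 ± 0.16 with CD153-Fc. The CD153-Fc call was lost without each of the 6 treated arrays and with median scaling (adjusted p = 0.120). It was lost as well with no filter on dim probes, without a trend, with the replicate block and in a fit of the compared groups alone. OSM, the gene of oncostatin M, rose by 0.89 ± 0.20 with T104, and IL26, a relative of IL10, fell by 0.83 ± 0.21. Each of these calls was lost without either T104 array and in a fit of the compared groups alone (adjusted p = 0.0737 and 0.115). In untreated cells IL26 lay at 11.31 and 10.59 log2. Its call was also lost without untreated replicate 1, where the difference was -0.46 log2, without either CD153-Fc array and with no filter on dim probes. IL21 and IL2, the ligand genes of the receptors above, were detected on 0 arrays.

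Of 6 other JAK and STAT genes tested, 1 rose and 1 fell with T104. JAK1, the kinase that pairs with JAK3 on these receptors, rose by 0.60 ± 0.17 log2, and STAT4, which transmits interleukin 12 signals, fell by 0.71 ± 0.14. Both calls were lost without either T104 array and in a fit of the compared groups alone (adjusted p = 0.159 and 0.0607). The JAK1 call stood at adjusted p = 0.0445. It was lost without each of the 6 treated arrays, without untreated replicate 2 (0.40 log2) and with median scaling (adjusted p = 0.145). It was lost as well with no filter on dim probes (adjusted p = 0.122) and without a trend (adjusted p = 0.0727). Of 12 inhibitors, 2 rose and 1 fell with T104. SOCS2, of the same family as SOCS3, rose by 1.06 ± 0.16 log2 with T104 and by 0.88 ± 0.16 with CD153-Fc + T104. PTPN2, a phosphatase that acts on JAKs and STATs, rose by 0.95 ± 0.15 and 0.65 ± 0.15, and PTPN6, the gene of the phosphatase SHP-1, fell by 0.99 ± 0.20 and 0.80 ± 0.20. The T104 calls of SOCS2 and PTPN2 held without each array, and that of PTPN6 was lost without T104 replicate 1. Without either of its own arrays, the CD153-Fc + T104 call was lost for SOCS2 (adjusted p = 0.0931 and 0.0509) and PTPN6 (adjusted p = 0.167 and 0.173), and that of PTPN6 also without either CD153-Fc array (adjusted p = 0.0621 and 0.0633). That of PTPN2 was lost without each of the 6 treated arrays (adjusted p of 0.0562 to 0.156) and, with median scaling, at 0.37 log2 (adjusted p = 0.151).

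Of 20 tested genes linked with ALK or STAT3 in anaplastic lymphoma, 7 rose with T104, 5 with CD153-Fc + T104 and 2 with CD153-Fc, and 0 were called lower by limma. CD274, the gene of the checkpoint ligand PD-L1, was at 7.68 and 7.97 log2 in untreated cells and at 9.65 and 9.62 with T104, a rise of 1.81 ± 0.22. BCL6, a transcriptional repressor, rose by 1.01 ± 0.15 with T104, MUC1, a membrane mucin, by 0.97 ± 0.17, and BCL3, of the IkB family, by 0.68 ± 0.13. The call of MUC1 was lost without T104 replicate 1 and that of BCL3 without either T104 array. With CD153-Fc, CD274 rose by 1.29 ± 0.22 and MUC1 by 0.81 ± 0.17. Each call was lost without either CD153-Fc array and in a fit of the compared groups alone (adjusted p = 0.0566 and 0.303). The MUC1 call was also lost when any other treated array was left out. Other settings that lost it were median scaling (adjusted p = 0.0843) and no filter on dim probes (adjusted p = 0.0872). It was lost as well without a trend (adjusted p = 0.0674) and with the replicate block (adjusted p = 0.0619).

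**Figure D4:**
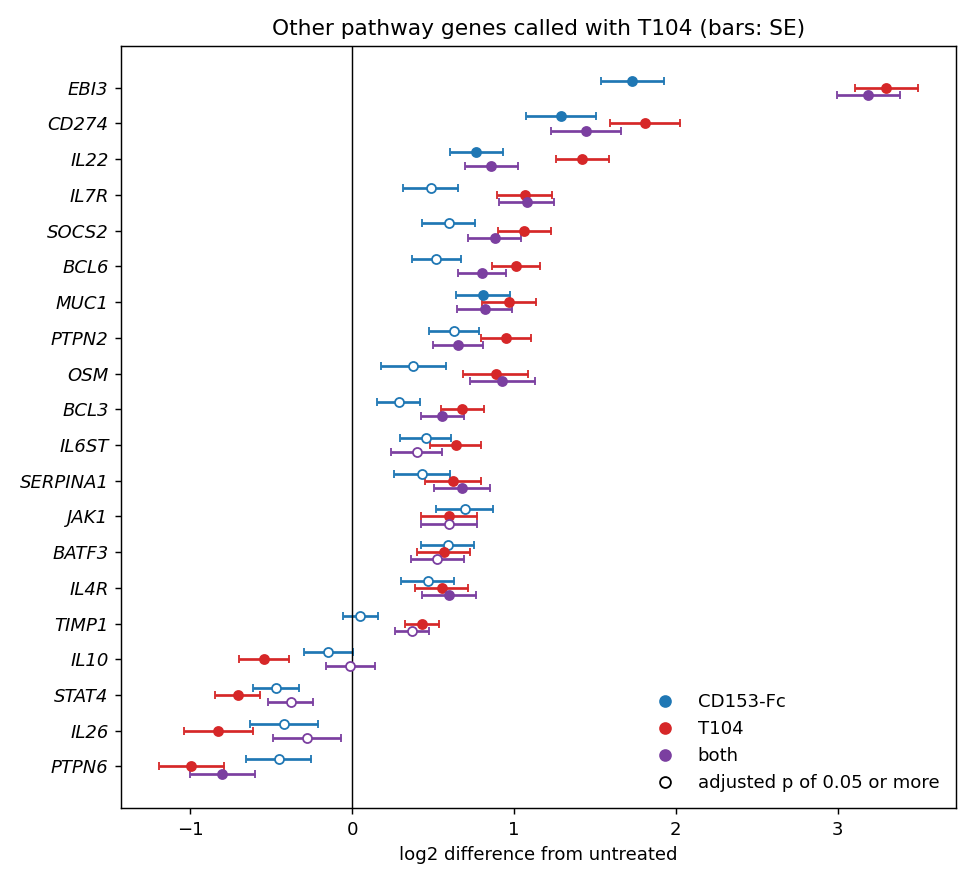
Difference from untreated cells in log2 intensity (horizontal axis) for the 20 other pathway genes called with T104, with bars of 1 SE and filled points where the adjusted p was under 0.05. EBI3 stands apart at 3.30 with T104 and 3.19 with both agents, fitted from a group under the detection limit, and 4 genes lie below 0 with T104.

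The genes with a pattern most like that of ALK over the 8 arrays were PI15, JOSD1 and OTUB1, with Pearson r of 0.963, 0.956 and 0.955. Those most like IL21R were CDC42EP4, MTMR11 and DENND11, with r of 0.995, 0.991 and 0.990. They are the highest of all tested genes on the same arrays, which share their normalization.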

How the data were processed

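RNA was isolated with TRI reagent and biotinylated cRNA was made with an Ambion kit, per the labels' protocols. The authors deposited linear probe intensities, not normalized, with a detection p-value per probe and array, and processed intensities, used here as an alternative. GenomeStudio is named in the submitters' processing notes and BeadStudio in the design text. The processed values were linear, with a median of 119.7 on every array, and the sources do not state their normalization.

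limma 3.58.1 (R 4.3.3) corrected the background by detection p (neqc, offset 16), quantile normalized and took log2. The 12543 probes detected at p under 0.01 on at least 2 of 8 arrays were kept, and the brightest kept probe stood for a gene. The platform annotation gave 28093 probes 1 symbol, 13 several and 20691 none. One model held a mean per group for all 8 arrays (eBayes with a trend, 4 residual and 8.78 prior degrees of freedom), with Benjamini-Hochberg adjustment over 10183 features, and an adjusted p under 0.05 is a call. The fit was tested on simulated data with noise of the same spread in every group. That run cannot show how the fit deals with the wider spread of the untreated duplicates. The number of arrays limits the precision.

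All members are named. Of each pathway list, up to 4 genes with the largest called change with T104 and up to 2 with CD153-Fc are named, and the 3 genes most like ALK and IL21R by Pearson r. Members and lists were chosen with earlier results of these data known. The replicate numbers were not used as pairs in the main fit. Correlations of same-numbered deviations ran from -0.099 to 0.0072, so no shared replicate effect was seen. With 2 arrays per group they cannot show whether same-numbered cultures were handled together.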

Additional observations from a re-analysis of the deposited data

Results flagged for a closer look

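The response to CD153-Fc differed between cultures with and without T104, by the interaction test, in 1 of 8 tested members and 3 of 59 other pathway genes, where 1.34% of all features were called. The difference was -1.01 log2 for SOCS3, -1.33 for IL22 and -1.66 for CD274. For EBI3 the fitted value was -1.84, which is no exact size because the untreated arrays were not well above background. Each of these calls was lost without either T104 array.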

How the results depend on the processing

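Of 56 member differences 12 were called, and 0 of these changed sign in 19 other settings, 8 of which left out an array, while 12 of those not called did in at least 1. The calls of IL21R, IL2RA and STAT5A with T104, and of IL21R with CD153-Fc + T104, held in all 19. The 3 members called with CD153-Fc became 1 with median scaling, 1 without a trend and 0 in a fit of the compared groups alone. In these settings 0.884%, 1.21% and 0.326% of all features were called. Each of the 3 calls was also lost without either CD153-Fc array. The 4 with T104 became 3 to 7 and the 3 with CD153-Fc + T104 became 1 to 4 with an array left out, where 2.79% to 33.6% and 1.82% to 33% of all features were called. T104 against CD153-Fc (1 call) had 0 with median scaling and 0 with no filter, where 0.511% and 0.129% of all features were called. That call was also lost when any treated array was left out. CD153-Fc + T104 against CD153-Fc (0 calls) had 1 in the fit of those groups, where 2.28% of all features were called. The interaction (1 call) had 0 with median scaling, 0 with no filter and 0 without a trend, where 0.727%, 0.21% and 0.884% of all features were called. Its call was also lost when any treated array was left out. With the replicate block the interaction had 0 and CD153-Fc had 2, where 1.03% and 0.864% of all features were called. No other member count changed with the block. Median scaling moved the median feature to -0.19, -0.20 and -0.31 log2 for CD153-Fc, T104 and CD153-Fc + T104 against untreated. For CD153-Fc 57 rose and 33 fell under it against 112 and 28, for T104 317 rose and 910 fell under it against 520 and 551, and for CD153-Fc + T104 210 rose and 1428 fell under it against 389 and 290. The replicate block called 88 features with CD153-Fc against 140. The cause of these shifts was not tested. No slide is named in the files used, so a slide block was not run. Signal near background limits JAK3, IL2RG, NPM1 and 3 probes of IL21R.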
